A study of Homo sapiens with 18 samples.

Results

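The ERBB receptors and their ligands were followed through RNA-seq of 3 human melanoma lines. The 10 genes were taken by symbol from the 58870 genes of the count table: the receptors EGFR, ERBB2, ERBB3 and ERBB4, the neuregulins NRG1 and NRG3, and the EGF-family ligands HBEGF, AREG, EREG and TGFA. They are defined by their symbols, and the group was picked with earlier results of these data known. RNA came from WM164, SKMel28 and A375 cultures carrying a lentiviral vector for either Myc-DDK-tagged MAFG, a small MAF transcription factor, or GFP as the control, which gave 6 conditions with 3 libraries each and 18 libraries in all. In both vectors an EF1α promoter drove the insert and blasticidin resistance was the selection marker, so the GFP cells share the vector and differ from untreated cells. Nothing in the labels says whether the 3 libraries of a condition came from separate cultures. The p-values therefore measure only the spread between these libraries, which may be technical.

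ERBB receptors are tyrosine kinases that pair with each other when a ligand binds and then pass a signal to the RAS-ERK and PI3K-AKT pathways. ERBB2 has no known ligand of its own and acts as a partner, whereas ERBB3 has little kinase activity and signals through the partner it pairs with. TGFA and AREG bind EGFR, HBEGF and EREG bind EGFR and ERBB4, NRG1 binds ERBB3 and ERBB4, and NRG3 binds ERBB4. In melanocytes and their neural crest precursors, ERBB3 and the neuregulins are known for a part in growth and migration, and EGFR has been tied to drug tolerance in melanoma.

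Of the 10 genes, 8 had a start-site window in the RefSeq promoter sequences of GRCh38.p14, with 11 windows in all, each of 250 bases before and 50 bases after a start site. The windows of EGFR, TGFA and NRG3 are printed because these transcripts changed in WM164 MAFG cells, for NRG3 the first of its 2 overlapping windows. Every window was searched on both strands for TGAGTCA, the AP-1 site, TGCTGA, a core of the MAF recognition element, and CACGTG and CATGTG, the E-boxes that MITF binds, and capitals mark each match. The sequences run 5′ to 3′ on the strand of the gene.

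EGFR, upstream start, chr7:55018767-55019066, plus strand: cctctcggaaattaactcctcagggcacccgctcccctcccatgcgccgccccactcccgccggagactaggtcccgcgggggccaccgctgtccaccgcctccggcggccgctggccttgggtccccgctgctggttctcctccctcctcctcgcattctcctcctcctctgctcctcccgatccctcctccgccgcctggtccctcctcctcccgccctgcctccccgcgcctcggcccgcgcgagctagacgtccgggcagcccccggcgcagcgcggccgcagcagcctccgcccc
EGFR, internal start, chr7:55109589-55109888, plus strand: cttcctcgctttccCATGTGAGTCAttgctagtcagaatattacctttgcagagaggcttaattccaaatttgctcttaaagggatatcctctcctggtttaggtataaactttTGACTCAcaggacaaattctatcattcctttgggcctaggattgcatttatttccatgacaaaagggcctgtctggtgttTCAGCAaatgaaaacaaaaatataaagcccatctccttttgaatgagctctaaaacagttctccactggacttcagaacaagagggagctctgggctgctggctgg
TGFA, upstream start, chr2:70553777-70554076, minus strand: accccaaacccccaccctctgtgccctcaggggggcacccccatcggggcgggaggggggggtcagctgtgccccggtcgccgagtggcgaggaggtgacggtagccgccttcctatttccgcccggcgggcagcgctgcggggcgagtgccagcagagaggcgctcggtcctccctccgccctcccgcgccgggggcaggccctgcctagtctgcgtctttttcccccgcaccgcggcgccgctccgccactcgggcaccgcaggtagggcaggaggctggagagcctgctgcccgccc
TGFA, internal start, chr2:70553397-70553696, minus strand: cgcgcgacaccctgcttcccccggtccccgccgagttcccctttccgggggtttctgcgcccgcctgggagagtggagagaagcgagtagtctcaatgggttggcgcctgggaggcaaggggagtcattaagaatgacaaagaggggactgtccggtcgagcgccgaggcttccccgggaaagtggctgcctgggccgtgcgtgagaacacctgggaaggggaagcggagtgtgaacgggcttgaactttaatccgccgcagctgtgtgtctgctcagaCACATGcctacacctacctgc
NRG3, upstream start, chr10:81874944-81875243, plus strand: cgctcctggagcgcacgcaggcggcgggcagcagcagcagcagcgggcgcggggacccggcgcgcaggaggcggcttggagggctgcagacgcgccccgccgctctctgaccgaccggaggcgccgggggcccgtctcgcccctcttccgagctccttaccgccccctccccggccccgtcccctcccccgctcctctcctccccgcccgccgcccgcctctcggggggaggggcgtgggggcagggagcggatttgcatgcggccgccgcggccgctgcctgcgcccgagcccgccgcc

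The internal EGFR start lies within the EGFR gene (chromosome 7, 55019017 to 55211628 on the plus strand of GRCh38) and its window held TGAGTCA at position 19 on the forward and at position 115 on the reverse strand, counted from the 5′ end of the window. It also held TGCTGA at position 195 on the reverse strand and CATGTG at position 15, which overlaps the first TGAGTCA. The only other match among the printed windows was CATGTG at position 280 on the reverse strand of the internal TGFA window. Among 35116 RefSeq windows of 300 bases, 4.95% held TGAGTCA, 17.3% TGCTGA, 7.26% CACGTG and 11.1% CATGTG. The upstream windows were rich in G and C, with 75.3% in EGFR, 75.3% in TGFA and 81.0% in NRG3, against 42.0% in the internal EGFR window. A match describes letters only, and binding was not measured in these libraries. In GENCODE 44 on GRCh38, TGFA lies on chromosome 2 from 70447284 to 70554193 (minus strand), NRG3 on chromosome 10 from 81875194 to 82987179 and ERBB3 on chromosome 12 from 56076799 to 56103505 (both plus strand).

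Depth ran from 20122172 to 39025042 counts per library, and the shallowest was the second GFP library of SKMel28. MAFG itself did not overlap between MAFG and GFP libraries in any line: it had 1500 to 1600 against 582 to 868 counts in WM164, 994 to 1166 against 529 to 787 in SKMel28, and 1627 to 2227 against 905 to 1173 in A375 cells. Its log2 fold change was 1.04, 0.64 and 0.80, and edgeR passed it in WM164 (adjusted p = 6.37e-08) and SKMel28 (adjusted p = 1.28e-04) but not in A375 cells (adjusted p = 0.0655). In deposited TPM, MAFG went from 2.89 ± 0.543 to 24.5 ± 3.34 in WM164, from 3.96 ± 0.641 to 17 ± 2.66 in SKMel28 and from 4.22 ± 0.291 to 25.2 ± 2.88 in A375 (SD, n = 3), without overlap in any line. The melanocyte lineage markers were present in WM164 and SKMel28 cells, with a summed level of 5404 to 5772 and 5228 to 5503 CPM (counts scaled to a common library size with TMM over the 18 libraries) in the GFP libraries. In A375 GFP cells the 10 markers summed to 36.4 to 42.6 CPM, and MLANA, TYR and DCT had 0 counts in each library. Markers of keratinocytes, leukocytes and endothelium summed to at most 1.73 CPM in any library. The fibroblast markers DCN, LUM and PDGFRA summed to 21.6 to 22.5 CPM in WM164, 11.4 to 12.9 in SKMel28 and 0.217 to 0.335 in A375 GFP cells.

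The first comparison asked how the GFP cells of the 3 lines differ. Levels are given in CPM as mean ± SD over 3 libraries, and differences come from edgeR's quasi-likelihood test on all 18 libraries with Benjamini-Hochberg adjustment over 18767 genes. Genes whose adjusted p did not exceed 0.05 are referred to as called. A375 differed from WM164 in 9 of 9 tested members and from SKMel28 in 8 of 9, where 71.5% and 68.6% of all tested genes were called. WM164 and SKMel28 differed in 6 of 9 members against 56.8% of all genes. EREG did not pass the count filter. Since the lines differ in most genes, these counts are close to the background. ERBB4 met the count filter through WM164 GFP cells and AREG mainly through A375 cells, where each was highest. Neither adds weight when set against these shares.

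Among the receptors, EGFR set A375 apart: its level was 156 ± 9.18 CPM there, 1.35 ± 0.561 in WM164 and 1.15 ± 0.409 in SKMel28 GFP cells. A375 was higher by 6.85 on the log2 scale than WM164 (SE 0.21, edgeR adjusted p = 5.21e-17) and by 7.14 than SKMel28 (SE 0.21, edgeR adjusted p = 4.06e-17). No A375 library came near the other lines, whereas WM164 and SKMel28 overlapped and differed by 0.29, with a 95% interval from -0.29 to 0.87. ERBB3 showed the opposite order, with 212 ± 16.2 CPM in WM164, 150.5 ± 4.46 in SKMel28 and 4.38 ± 0.827 in A375. A375 was lower by 48.4-fold than WM164 (edgeR adjusted p = 2.47e-19) and by 34.3-fold than SKMel28 (edgeR adjusted p = 6.75e-19). WM164 stood above SKMel28 by 0.50 on the log2 scale (SE 0.09, edgeR adjusted p = 1.04e-04), but limma on log2(TPM + 1) gave -0.25, where the median of all genes was -0.42.

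ERBB2 varied little, from 21.6 ± 1.39 CPM in SKMel28 and 24.0 ± 1.98 in WM164 to 33.4 ± 2.58 in A375. A375 was higher than both, by 0.47 (SE 0.12, edgeR adjusted p = 0.00180) and 0.63 (SE 0.12, edgeR adjusted p = 1.28e-04) on the log2 scale. The other 2 lines did not pass the test, at 0.16 with a 95% interval from -0.09 to 0.40. ERBB2 overlaps PGAP3 and MIEN1 on the opposite strand, and because the labels describe an unstranded kit and the methods a stranded one, reads of these genes cannot be told apart with certainty. ERBB4, the receptor shared by both neuregulins, was near the limit of detection. It had 12, 18 and 14 counts in WM164, 3, 1 and 0 in SKMel28, and 0 in each A375 GFP library. WM164 was at least 19.5-fold higher than A375, computed against 3 counts over the A375 libraries. This bound and the later ones of this kind leave out the counting error of the higher group.

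The neuregulins were ordered in opposite ways. NRG1 was at 56.3 ± 2.87 CPM in A375, 6.75 ± 0.295 in SKMel28 and 0.261 ± 0.392 in WM164 GFP cells, and neighbouring lines did not overlap. A375 exceeded SKMel28 by 3.06 on the log2 scale (SE 0.26, edgeR adjusted p = 1.04e-09) and WM164 lay below SKMel28 by a log2 difference of -4.78 (SE 0.43, edgeR adjusted p = 5.86e-09). NRG3 was at 91.0 ± 5.97 CPM in WM164, 23.5 ± 1.52 in SKMel28 and 3.28 ± 1.28 in A375. WM164 exceeded SKMel28 by 1.95 (SE 0.16, edgeR adjusted p = 1.35e-09), and A375 lay below SKMel28 at -2.84 (SE 0.18, edgeR adjusted p = 1.15e-11). A375 therefore had the most NRG1 and the least NRG3, and WM164 the reverse.

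HBEGF, a membrane-anchored ligand released by shedding, was at 49.4 ± 1.40 CPM in A375, 7.31 ± 1.31 in SKMel28 and 6.33 ± 0.401 in WM164. A375 exceeded SKMel28 by 6.81-fold (edgeR adjusted p = 7.07e-13), while the difference between WM164 and SKMel28, -0.20, had a 95% interval from -0.50 to 0.11. AREG followed the same order, with 101, 91 and 66 counts in A375, 10, 5 and 19 in SKMel28 and 0 in each WM164 GFP library. A375 exceeded SKMel28 by 2.46 on the log2 scale (SE 0.51, edgeR adjusted p = 3.09e-04), and WM164 was lower by at least 64.7-fold than A375 and at least 11.9-fold than SKMel28, against 3 counts over its libraries. TGFA was highest in WM164, at 17.8 ± 1.24 CPM, then 11.2 ± 1.93 in A375 and 2.91 ± 0.207 in SKMel28. A375 was below WM164 at -0.67 (SE 0.17, edgeR adjusted p = 0.00147), a call lost by limma on log2(TPM + 1), with -0.17 (adjusted p = 0.397) and adjusted p between 7.89e-05 and 0.463 over the alternatives. EREG had at most 6 counts in any GFP library and 0 in WM164. With no count filter edgeR called it in A375 and in SKMel28 over WM164 (adjusted p = 0.0481 and 0.0460), and in the fits that left out a library the adjusted p ran up to 0.0916 and 0.172.

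**Figure D1:**
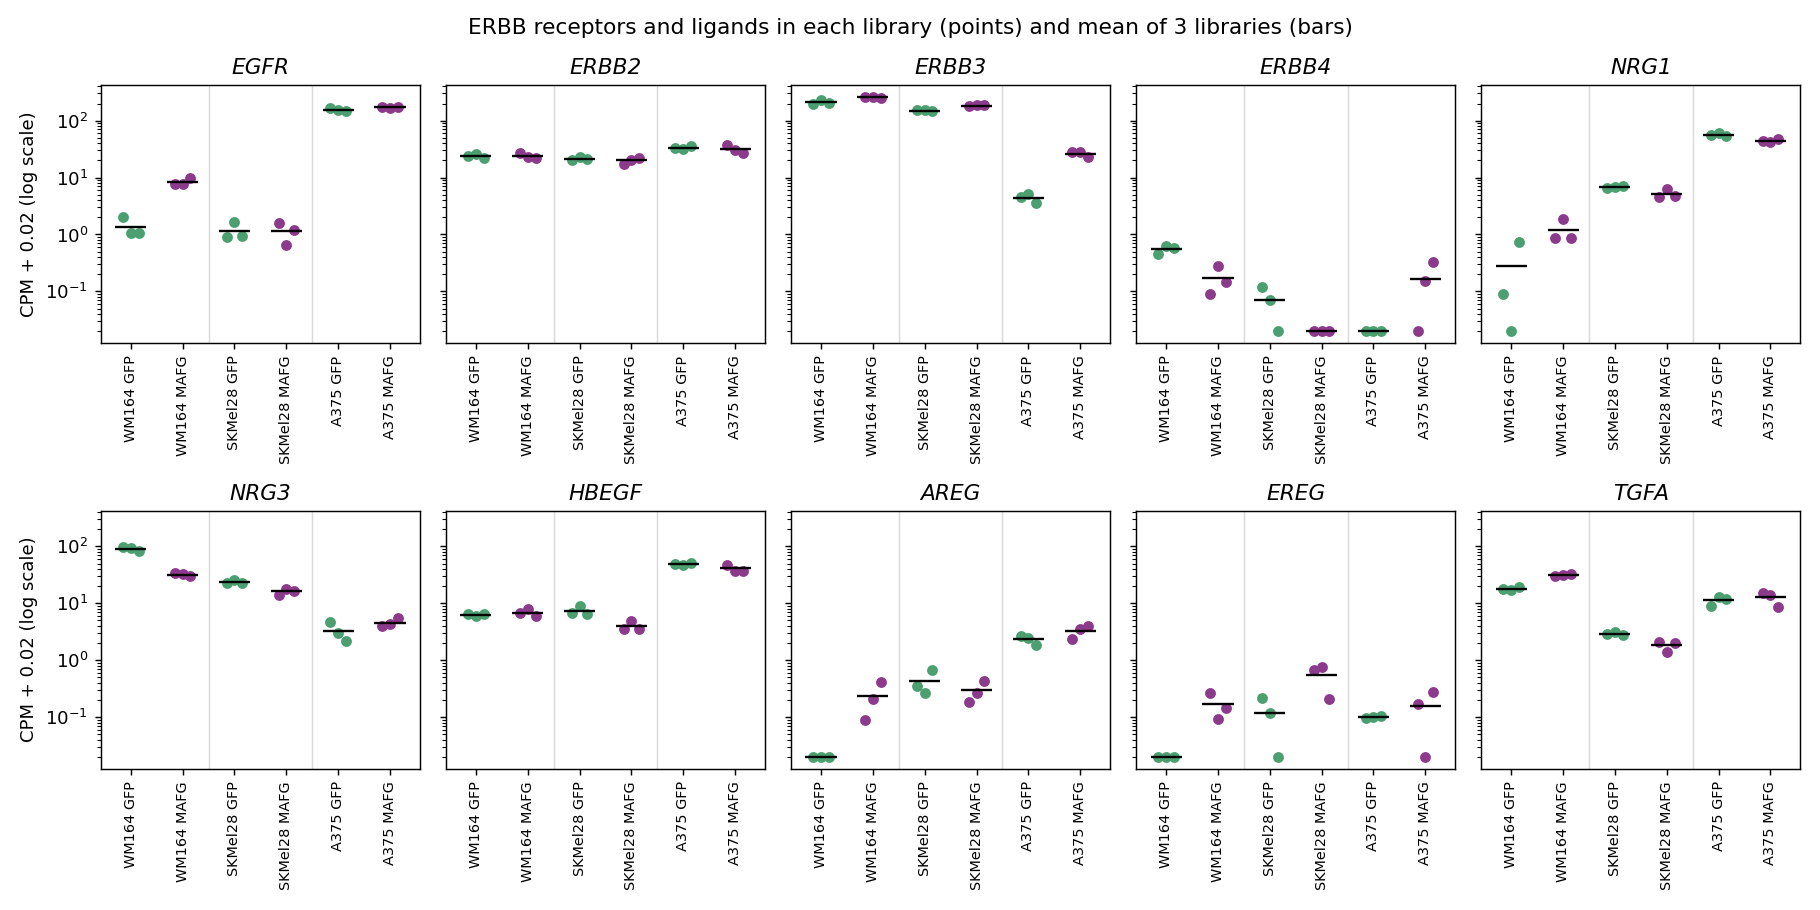
Level of each ERBB receptor and ligand in each library, as CPM plus 0.02 on a log axis, for the 6 conditions, with points for libraries (green GFP, purple MAFG) and bars for the mean of 3 libraries. EGFR, NRG1 and HBEGF are highest in A375 and ERBB3 and NRG3 are lowest there, and the MAFG libraries stand apart from GFP for EGFR and NRG3 in WM164 and for ERBB3 in A375.

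Levels of different genes were compared only in TPM, which accounts for transcript length. ERBB3 made up 89.0% of the summed TPM of the 4 receptors in WM164 and 86.6% in SKMel28 GFP cells (means of 3 libraries), with ERBB2 at 10.4% and 12.4%. In A375 GFP cells EGFR took 63.5%, ERBB2 31.6% and ERBB3 4.89%. Of the summed TPM of the 6 ligands, NRG3 held 81.0% in WM164 and 55.8% in SKMel28, but 2.71% in A375, where NRG1 with 44.2% and HBEGF with 41.3% led. The summed receptor TPM was 39.9, 48.4 and 26.6 and the summed ligand TPM 29.9, 15.9 and 45.5 in WM164, SKMel28 and A375 GFP cells. For the receptors, single libraries of WM164 (31.26 to 44.45) and SKMel28 (43.86 to 51.58) overlapped. The median of all genes in log2 TPM also differed between these lines, so these sums do not order them. The EGFR share of the second SKMel28 GFP library, 2.02%, rests on a TPM of 1.04, against 0.23 and 0.07 in its replicates, while its count of 33 lay near theirs of 27.

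The second comparison asked what MAFG changed within each line. In WM164 cells 6 of the 8 tested members were called, 4 higher and 2 lower, where 31.8% of 15919 tested genes were called, 16.2% higher and 15.6% lower. Past a 2-fold change as well, 4 of 8 were called against 6.94% of all genes, but 2 of 8 with DESeq2 and without the first or second GFP or the first MAFG library. NRG1 and ERBB4 are among these 4 and among the 6 called. Each met the count filter through the group where it was higher (NRG1 with MAFG, ERBB4 with GFP), so neither adds weight when set against these shares. EGFR, NRG1, TGFA and ERBB3 rose and NRG3 and ERBB4 fell, while ERBB2 and HBEGF did not pass. The median log2 fold change of the 8 tested members was 0.19 and that of all genes was -0.00153. In bulk RNA, fewer cells that express a gene and less RNA per cell cannot be told apart.

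EGFR rose from 2.0, 1.03 and 1.03 CPM in the GFP libraries to 7.66, 7.54 and 9.64 CPM in the MAFG libraries of WM164. The groups did not overlap, which held for 43.4% of all tested genes, and the lowest MAFG library was well above the highest GFP library. The log2 fold change was 2.61 (SE 0.23, edgeR adjusted p = 9.30e-08), or 6.11-fold, from 113 to 735 counts over 3 libraries each. It was called in each of 12 alternatives that kept this threshold, with log2 values from 2.43 to 3.01. Neither TPM scale could test EGFR within WM164. Its TPM was 0.12 to 0.17 with GFP and 0.84 to 1.23 with MAFG, short of 1 TPM in 3 libraries. The MAFG level stayed far below the 156 CPM of A375 GFP cells. In the same libraries the summed melanocyte markers fell from 5404 to 5772 CPM to 3532 to 3600.2 CPM, and MITF was lower by a log2 change of -0.65 (edgeR adjusted p = 1.55e-08). PDGFRA was higher by 1.97 (edgeR adjusted p = 1.53e-09) and LUM lower at -1.0 (edgeR adjusted p = 3.42e-07). The part of these markers in the EGFR result and in the other WM164 results was not tested.

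NRG3 fell from 96.5, 91.9 and 84.7 CPM to 33.7, 32.3 and 29.8 CPM in WM164 MAFG cells. Each group was tight and they lay far apart. Its log2 fold change was -1.51 (SE 0.07, edgeR adjusted p = 2.01e-11), a 2.85-fold drop that was called in each of 14 alternatives. NRG1, the other neuregulin, had 2, 0 and 18 counts with GFP and 24, 51 and 27 with MAFG. The MAFG libraries were all above the GFP libraries, but 1 GFP library carried 18 of the 20 counts of its group. The log2 fold change of 2.23 (SE 0.77) passed edgeR at an adjusted p of 0.0353 but was lost in 5 of 11 alternatives, DESeq2 among them (adjusted p = 0.286), with adjusted p from 6.27e-04 to 0.286. Leaving out a library moved it between 1.61 and 4.92, the latter without the third GFP library. NRG1-IT1, a non-coding transcript inside NRG1 on the same strand, had 8 to 11 counts in the MAFG and 0 in the GFP libraries of WM164.

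TGFA, an EGFR ligand, rose from 17.5, 16.8 and 19.2 CPM to 30.2, 31.9 and 32.9 CPM. The MAFG libraries were all above the GFP libraries. The log2 fold change was 0.83 (SE 0.08, edgeR adjusted p = 5.05e-07), or 1.78-fold, and it passed in each of 14 alternatives. ERBB3 rose from 199, 230 and 207 CPM to 258, 264 and 250 CPM, again without overlap, with a log2 fold change of 0.28 (SE 0.06, edgeR adjusted p = 0.00132). It missed the threshold only in limma on log2(TPM + 0.1), at 0.56 (adjusted p = 0.0838), with adjusted p as low as 4.24e-05 in the other alternatives.

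ERBB4 had 12, 18 and 14 counts with GFP and 2, 7 and 4 with MAFG in WM164, so the groups did not overlap but both were sparse. Its log2 fold change of -1.79 (SE 0.62, edgeR adjusted p = 0.0338) was kept in 2 of 11 alternatives and reached an adjusted p of 0.310 in the model of all 18 libraries. AREG and EREG did not pass the count filter. AREG had 0 counts in the GFP libraries and 2, 5 and 13 in the MAFG libraries, at least 6.32-fold higher, and EREG had 0 against 7, 2 and 4, at least 4.11-fold higher, each bound taken against 3 counts over the GFP group. Leaving out a library moved these bounds between 3.5 and 8.43 for AREG, the lowest without the third MAFG library, and between 2.63 and 5.02 for EREG, the lowest without the second GFP library. With no count filter edgeR called AREG (adjusted p = 0.0213) but not EREG (adjusted p = 0.0957), and AREG was also called in the model of all 18 libraries (adjusted p = 0.00321). ERBB2 stayed at 24.0 ± 1.98 and 24.3 ± 2.7 CPM, a log2 difference of 0.01 with a 95% interval from -0.17 to 0.20. For HBEGF the difference was 0.11, with an interval from -0.18 to 0.40.

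In TPM, the ligand makeup of WM164 moved from NRG3 towards TGFA. NRG3 went from 77.4% to 83.0% of the summed ligand TPM in the GFP libraries to between 45.3% and 50.2% in the MAFG libraries, and TGFA from 11.5% to 16.0% to between 37.7% and 42.3%. Neither range overlapped. The summed ligand TPM was 27.4 to 32.2 with GFP and 19.0 to 21.3 with MAFG. On the receptor side ERBB3 held 89.0% and 89.9% (means), and EGFR 0.362% and 1.81%. So even after its rise EGFR made up a small part of the receptor transcripts of WM164.

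**Figure D2:**
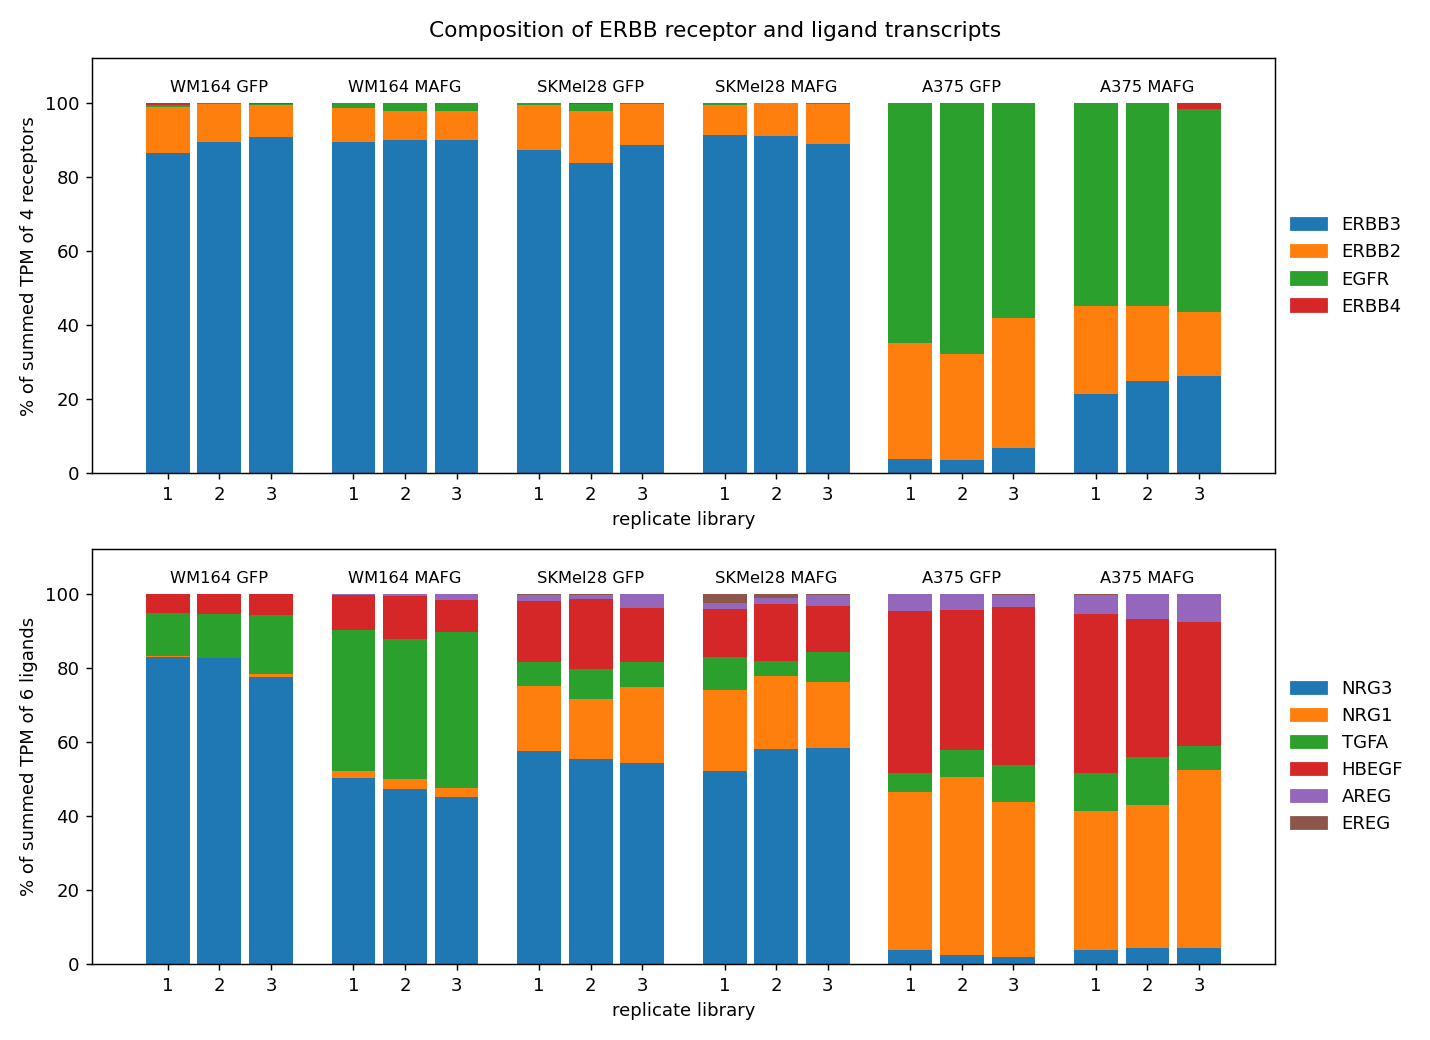
Share of each gene in the summed TPM of the 4 receptors (top, percent) and of the 6 ligands (bottom, percent), with a stacked bar for each of the 18 libraries grouped by condition. ERBB3 leads in WM164 and SKMel28 and EGFR in A375, the ERBB3 share is higher in A375 MAFG libraries (21.5% to 26.3%) than in A375 GFP libraries (3.72% to 6.94%), and the TGFA share is higher in WM164 MAFG than in WM164 GFP libraries.

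In SKMel28 cells 3 of the 7 tested members were called, 1 higher and 2 lower, against 29.9% of 15523 genes, 14.6% higher and 15.3% lower, and 0 of them changed more than 2-fold by edgeR, where 4.74% of all genes did. By unadjusted edgeR p of 0.05 or less, TGFA and NRG1 would join them. The median of the 7 was -0.39 on the log2 scale. HBEGF fell from 6.70, 8.81 and 6.42 CPM to 3.54, 4.88 and 3.49 CPM, with every MAFG library below every GFP library, as for 43% of all genes. Its log2 fold change was -0.87 (SE 0.19, edgeR adjusted p = 0.00245) and it passed in each of 14 alternatives. The summed melanocyte markers went from 5228 to 5503 CPM to 4697 to 4916 CPM in the same libraries, and the fibroblast markers from 11.4 to 12.9 CPM to 18.3 to 21.3 CPM. LUM made up that rise (0.77, edgeR adjusted p = 5.15e-05), while PDGFRA went from 5 to 18 counts per library to 0 to 4 and DCN had 0 to 8 in both groups. The part of these markers in the SKMel28 results was not tested.

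NRG3 fell here as well, from 22.9, 25.3 and 22.5 CPM to 14.2, 17.8 and 16.5 CPM, again without overlap. The log2 fold change was -0.54 (SE 0.10, edgeR adjusted p = 7.20e-04), called in each of 14 alternatives. ERBB3 rose from 153, 153 and 145 CPM to 180, 188 and 186 CPM, with a log2 fold change of 0.30 (SE 0.05, edgeR adjusted p = 6.34e-04). That call was lost on both TPM scales, where the log2 change was 0.09 and the adjusted p 0.509 and 0.513 by limma, against 9.19e-07 at the lowest over the alternatives. Relative to the median of all genes on those scales, ERBB3 was higher by 0.23 and 0.25.

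TGFA went from 2.83, 3.15 and 2.76 CPM to 2.04, 1.40 and 1.95 CPM in SKMel28, without overlap but short of the threshold, at a log2 change of -0.69 (SE 0.26, edgeR adjusted p = 0.0568). In the model of all 18 libraries its adjusted p was 0.0397, the lowest of its alternatives, the highest being 0.168. NRG1 had a log2 change of -0.39 (SE 0.17, edgeR adjusted p = 0.10), and passed by limma on both TPM scales (adjusted p = 0.0325 and 0.0333) and by edgeR without the second MAFG library (adjusted p = 0.0338), with adjusted p up to 0.386 over its alternatives. ERBB2 had a change of -0.10 (95% interval from -0.30 to 0.09). EGFR overlapped fully between groups, with 27, 33 and 27 counts against 47, 18 and 31, and its interval from -0.87 to 0.85 leaves room for a change of either sign. AREG, EREG and ERBB4 did not pass the count filter. EREG had 6, 2 and 0 counts with GFP and 20, 21 and 5 with MAFG, and ERBB4 had 0 in each MAFG library. With no count filter edgeR called EREG (2.37, SE 0.90, adjusted p = 0.0470) but neither AREG (adjusted p = 0.667) nor ERBB4 (adjusted p = 0.382). In the 4 fits that left out a library and kept EREG, its adjusted p ran from 0.0329 to 0.163. The summed ligand TPM was 14.8 to 17.7 with GFP and 9.06 to 10.5 with MAFG, and the NRG3 share was 55.8% and 56.2%.

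In A375 cells 1 of 8 tested members was called, in the higher direction and past 2-fold, against 0.843% of 15779 genes, of which 0.78% were higher and 0.0634% lower, and 0.665% past 2-fold. This was ERBB3, which rose from 4.46, 5.16 and 3.52 CPM to 27.7, 28.3 and 22.9 CPM. The lowest MAFG library was far above the highest GFP library, and 12.8% of all genes did not overlap. The log2 fold change was 2.58 (SE 0.17, edgeR adjusted p = 4.75e-05), or 5.98-fold, and it was called in each of 14 alternatives with values from 1.90 to 2.71. The level reached in A375 MAFG cells, 26.3 ± 2.95 CPM, was still below the 150.5 ± 4.46 CPM of SKMel28 GFP cells. Its share of receptor TPM went from 4.89% to 24.2%, and that of EGFR from 63.5% to 54.8%.

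SOX10, a neural crest transcription factor, moved with ERBB3 in A375. It was at 6.93, 8.15 and 11.5 CPM with GFP and at 142, 102 and 97.9 CPM with MAFG, a log2 change of 3.68 (SE 0.21, edgeR adjusted p = 2.12e-05). The summed melanocyte lineage markers, which include SOX10, went from 36.4 to 42.6 CPM to 123 to 175 CPM. SOX10 made up most of that rise, with a mean of 8.85 CPM with GFP and 114 CPM with MAFG. MLANA and TYR stayed at 0 counts in each of the 6 libraries, DCT at 0 or 1, and MITF was at -0.07 (edgeR adjusted p = 0.997). Of the 10 markers, 2 averaged over 1 CPM with GFP and 3 with MAFG. The fibroblast markers summed to 0.217 to 0.335 CPM with GFP and 1.21 to 1.75 CPM with MAFG. The part of any of these in the ERBB3 result was not tested. In WM164 and SKMel28 cells SOX10 changed by -0.04 and 0.03 on the log2 scale, and ERBB3 by 0.28 and 0.30.

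The other members of A375 did not pass the test. EGFR changed by 0.13 (95% interval from -0.05 to 0.31) and ERBB2 by -0.09 (from -0.35 to 0.17). NRG1 was at 55.5, 59.5 and 53.9 CPM with GFP and 43.4, 41.6 and 47.0 with MAFG, which did not overlap, at -0.36 (SE 0.11, edgeR adjusted p = 0.331). HBEGF changed by -0.28 (edgeR adjusted p = 0.692) and passed only without the first MAFG library, at -0.38 (adjusted p = 0.0499). Its adjusted p over the alternatives went up to 1.0. NRG3, AREG and TGFA overlapped between groups, with log2 changes of 0.48, 0.50 and 0.17 and intervals from -0.10 to 1.06, -0.09 to 1.09 and -0.25 to 0.58. ERBB4 had 0 counts in the GFP libraries and 0, 5 and 13 in the MAFG libraries, at least 5.54-fold higher over the group. One MAFG library held 13 of the 18 counts, and without it the bound was 2.39, while leaving out the MAFG library at 0 gave 8.25. EREG had 3, 3 and 3 counts against 6, 0 and 11.

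**Figure D3:**
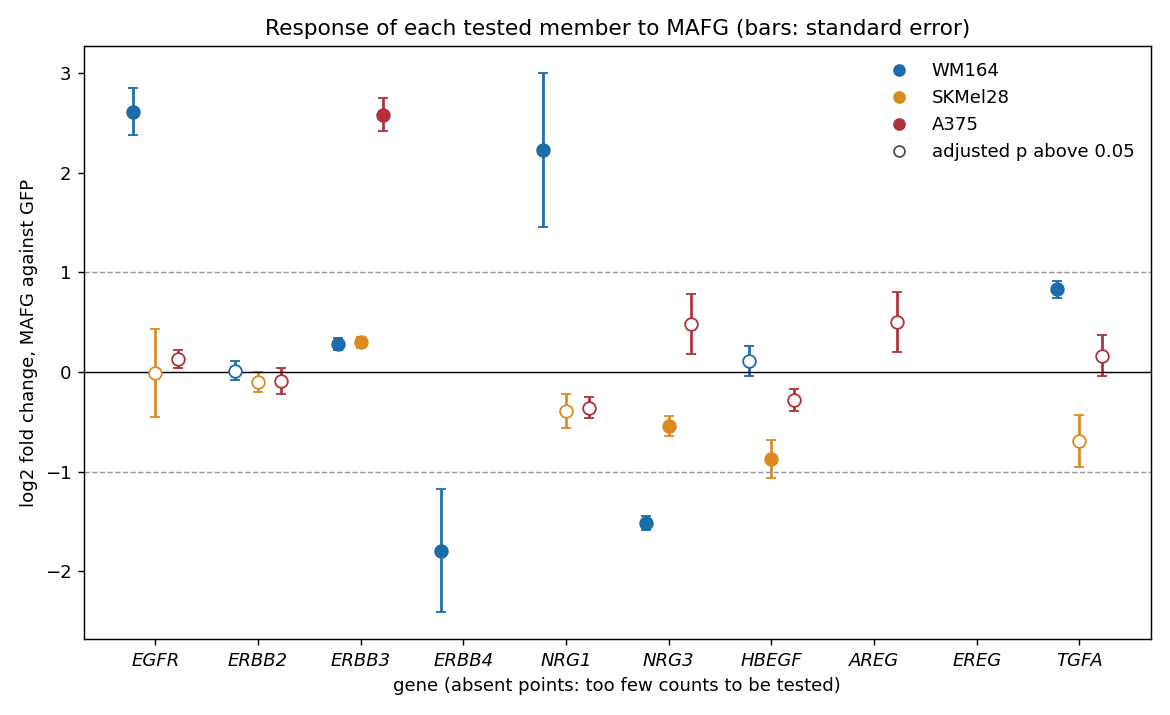
Log2 fold change of each tested member, MAFG against GFP, in WM164 (blue), SKMel28 (orange) and A375 (red), with bars of 1 standard error, filled points for an adjusted p of 0.05 or less by edgeR and dashed lines at a 2-fold change. EGFR is far above 0 in WM164 alone among the plotted lines and ERBB3 in A375, and NRG3 is below 0 in WM164 (-1.51) and SKMel28 (-0.54) but not in A375 (0.48).

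The third comparison tested whether these responses differ between lines, as differences of 2 log2 fold changes in a single edgeR model of 18 libraries. WM164 and SKMel28 differed in 6 of 9 members, WM164 and A375 in 6 of 9, and SKMel28 and A375 in 3 of 9, where 13.7%, 9.21% and 9.51% of all genes differed. In this model ERBB4 met the count filter through WM164 GFP cells and AREG mainly through A375 cells, where each was highest. Neither adds weight when set against these shares. Each pair of contrasts shares the libraries of a line. The EGFR response of WM164 exceeded that of SKMel28 by 2.58 (SE 0.39, edgeR adjusted p = 9.32e-05) and that of A375 by 2.48 (SE 0.26, edgeR adjusted p = 1.26e-06). On the TPM scales the EGFR difference between WM164 and A375 was 0.84 and 2.26 and missed the threshold by limma (adjusted p = 0.101 and 0.0788), whereas it passed in the other alternatives. The ERBB3 response of A375 exceeded both others, with WM164 lower at -2.31 (SE 0.14, edgeR adjusted p = 6.97e-10) and SKMel28 at -2.29 (SE 0.14, edgeR adjusted p = 9.15e-10). Between WM164 and SKMel28, the ERBB3 responses differed by -0.02, with a 95% interval from -0.27 to 0.24.

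NRG3 fell more in WM164 than in SKMel28, at -0.97 (SE 0.22, edgeR adjusted p = 0.00506). A375 showed no fall of NRG3, at 0.48 with a 95% interval from -0.10 to 1.06. Against A375 the response was lower in WM164, at -1.99 (SE 0.24, edgeR adjusted p = 8.90e-06), and in SKMel28, at -1.02 (SE 0.25, edgeR adjusted p = 0.0110). On the TPM scales limma did not call NRG3 between WM164 and SKMel28, at -0.62 on both (adjusted p = 0.0778 and 0.269), and between SKMel28 and A375 it lost the call on log2(TPM + 0.1) alone (-1.08, adjusted p = 0.112). TGFA and HBEGF separated WM164 from SKMel28, by 1.52 (SE 0.28, edgeR adjusted p = 7.60e-04) and 0.98 (SE 0.22, edgeR adjusted p = 0.00484). Neither passed between WM164 and A375, at 0.66 with an interval from 0.19 to 1.12 and 0.38 with an interval from -0.02 to 0.78. Between SKMel28 and A375 they were -0.86 (interval from -1.41 to -0.31, edgeR adjusted p = 0.0579) and -0.60 (interval from -1.01 to -0.19, edgeR adjusted p = 0.0796), and TGFA was called in 4 of 19 alternatives, DESeq2 among them (adjusted p = 0.0318, range 0.00380 to 0.442), and HBEGF in 1 of 19. The NRG1 response of WM164 exceeded those of SKMel28 and A375 by 2.65 and 2.61 (edgeR adjusted p = 0.00558 and 0.00645) and rests on the 20 counts of the WM164 GFP group, and without the third of those libraries it was 5.32 and 5.29. AREG in both WM164 contrasts and ERBB4 in both A375 contrasts made up the remaining calls, and each involves a group at 0 counts. The ERBB4 calls held in 3 of 15 alternatives (WM164 against A375) and 4 of 15 (SKMel28 against A375), and the AREG calls in 17 of 18 (WM164 against SKMel28) and 12 of 18 (WM164 against A375). ERBB2 passed in none of the 3 contrasts, with unadjusted edgeR p from 0.508 to 0.886.

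Other genes of the pathway were read from lists of its parts, and no list was tested as a whole. Over all tested genes, edgeR called 16.2% higher and 15.6% lower in WM164, 14.6% and 15.3% in SKMel28, and 0.78% and 0.0634% in A375. In WM164, 9 of the 13 ERK response genes were higher and 2 lower, with a list median of 0.23 against -0.00153 for all genes. They were led by the early response gene IER3 (1.34, SE 0.06, edgeR adjusted p = 4.24e-12) and the ERK phosphatase DUSP5 (1.57, SE 0.09, edgeR adjusted p = 2.81e-10). In SKMel28, 1 was higher and 5 lower, led by the immediate early transcription factor EGR1 (-0.87, edgeR adjusted p = 8.57e-08) and PHLDA1 (-0.47, edgeR adjusted p = 8.91e-06), and in A375 the RAS-ERK inhibitor SPRY4 passed alone (0.60, edgeR adjusted p = 0.0253). EGR1 was higher in WM164 by 0.86, the opposite sign to SKMel28, and this difference was not tested.

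Of 9 tested inhibitors of the receptors, 4 were higher and 1 lower in WM164 (31.8% of all genes called), 0 higher and 3 lower in SKMel28 (29.9% of all genes called, close to the share of this list), and 0 called by edgeR in A375, where 1 had an unadjusted p under 0.05. ERRFI1, which blocks the kinase of EGFR, rose by 1.65 (SE 0.06, edgeR adjusted p = 1.67e-12) and LRIG1, which promotes receptor degradation, fell by 1.62 on the log2 scale (SE 0.09, edgeR adjusted p = 1.68e-10) in WM164. LRIG1 was also lower in SKMel28 (-1.26, SE 0.12, edgeR adjusted p = 1.64e-06), as was the ubiquitin ligase CBLB (-0.40, edgeR adjusted p = 0.00260). Among the 5 further ligands, 2 could be tested in WM164 and both were lower, EGF at -0.99 (edgeR adjusted p = 9.02e-05) and NRG2 at -0.66 (edgeR adjusted p = 5.19e-04), and EGF was lower in SKMel28 at -0.75 (edgeR adjusted p = 0.0153).

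Of the 8 sheddases and their helpers, 3 were higher and 1 lower in WM164 against 31.8% of all genes, 0 higher and 2 lower in SKMel28 against 29.9%, and 0 were called in A375 (edgeR, with 1 at an unadjusted p under 0.05). In WM164 these included RHBDF1, an inactive rhomboid (0.57, edgeR adjusted p = 1.75e-05), and the metalloprotease ADAM19 (1.24, edgeR adjusted p = 2.62e-05), and in SKMel28 RHBDF2 (-0.39, edgeR adjusted p = 0.00174) and ADAM17, the main sheddase of TGFA and AREG (-0.37, edgeR adjusted p = 0.00522). Of the adaptors and effectors, 4 were higher and 8 lower of 19 tested in WM164, where 31.8% of all genes were called, and 2 higher and 7 lower of 18 in SKMel28, where 29.9% were. The docking protein GAB2 was lower in both, at -0.82 (edgeR adjusted p = 1.12e-09) and -0.35 (edgeR adjusted p = 1.43e-04). PIK3R3, a PI3K regulatory subunit, was lower in WM164 (-0.69, edgeR adjusted p = 6.76e-08) and the adaptor SHC1 in SKMel28 (-0.51, edgeR adjusted p = 1.28e-05). In A375 edgeR called 0 of 18 adaptors, and 0 had an unadjusted p under 0.05.

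**Figure D4:**
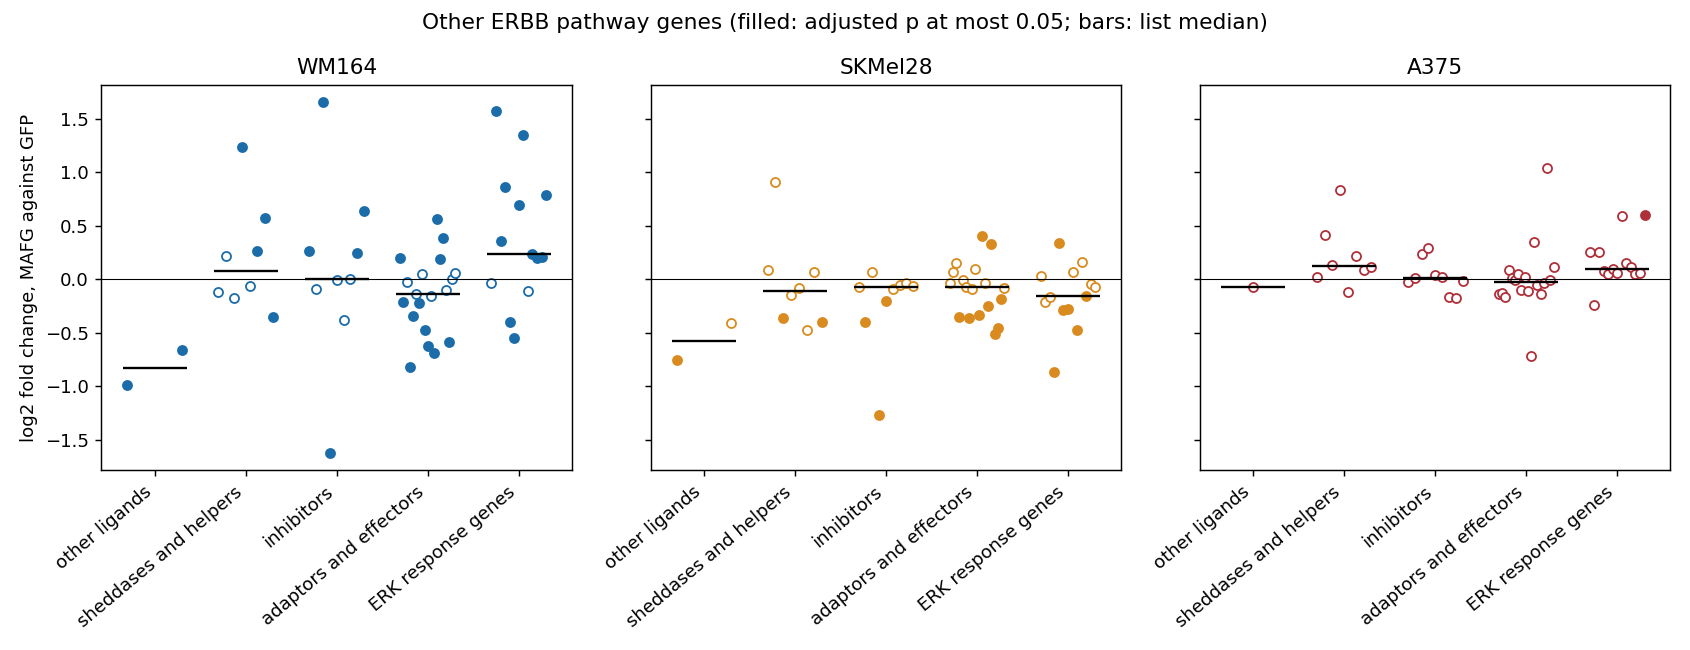
Log2 fold change, MAFG against GFP, of the other ERBB pathway genes in WM164, SKMel28 and A375 by list, with a point for each tested gene (filled at an adjusted p of 0.05 or less by edgeR) and a bar for the list median. The ERK response genes lie mostly above 0 in WM164 (median 0.23) and below it in SKMel28 (median -0.16), and SPRY4 is the filled point in A375.

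The genes whose profile over the means of the 6 conditions lay nearest to a member were found among 18767 genes by the root mean square difference of centred log2 CPM. For EGFR these were PDGFB at 0.11, BMP4 at 0.41 and RGS7 at 0.47 log2 units, where the profile of EGFR itself had an SD of 3.47. For ERBB3 they were ALK at 0.25, MYH14 at 0.26 and CNTNAP3 at 0.33 (SD 2.33), and for NRG1 they were AC245595.1 at 0.51, ADGRE2 at 0.53 and AC022415.2 at 0.53 (SD 3.13). With 6 points that mostly separate A375 from the other lines, these are descriptions of likeness without a test.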

How the data were processed

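The 18 RNA-seq libraries were grouped by cell line and insert as labelled. The authors deposited raw counts per gene, for which their methods describe trimming with cutadapt, alignment with STAR to GRCh38 and counting of uniquely aligned reads with featureCounts. Deposited TPM values, rounded by the authors, came in a separate table. The methods name RSEM for TPM directly after a sentence on other melanoma line data, and do not say whether it made these values. The submitters' processing notes list cutadapt 1.8.1, STAR 2.7.7a, RSEM 1.3.0 and DESeq2. The featureCounts version, the annotation release and the use of strand are not given in the sources used here. The labels and the methods name different library kits, one unstranded and one strand-specific.

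Counts were tested with edgeR 4.0.16 in R 4.3.3 (TMM, filterByExpr, quasi-likelihood F test, Benjamini-Hochberg adjustment over all tested genes, called at 0.05). Each line was fitted on its 6 libraries, and the GFP contrasts and the differences between responses on all 18. Alternatives used DESeq2 1.42.0, DESeq2 size factors, other count filters (none, or 10 counts in every library), a fold above 2, limma 3.58.1 on log2 TPM after adding 1 or 0.1, for genes reaching 1 TPM in 3 or more libraries, other sets of libraries, a replicate block, and leaving out each library. Standard errors were derived from the edgeR F statistic, and 95% intervals from them by the normal approximation. Fold changes on the TPM scales understate changes of low genes. Bounds against groups at 0 used 3 counts over the group at 0 and the observed counts of the other group. They cover the counting error of the group at 0 only. Neither the counting error of the higher group nor the spread between libraries is covered. The scripts were tested on simulated data.

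Genes named besides the 10 members were MAFG, the 2 genes of each pathway list with the smallest adjusted p among those called in each line, and for EGFR, ERBB3 and NRG1 the 3 nearest profiles. SOX10, MITF and the other markers were named as cell type checks. The members and lists were chosen with earlier results of these data known. Of the 58870 identifiers, 58472 had a GENCODE 44 gene, from which positions were taken, and promoter windows came from RefSeq (GRCh38.p14). Same-numbered GFP and MAFG libraries deviated from their group means with correlations of -0.040 to 0.030, so the numbers were not treated as pairs. Replicates correlated at 0.970 to 0.985 and differed by more than counting noise, so none was taken for a library deposited more than once. This does not show that they came from separate cultures.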

Additional observations from a re-analysis of the deposited data

Results flagged for a closer look

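The MAFG response differed between lines in 15 tests of single members, each by edgeR's quasi-likelihood test in the model of 18 libraries with Benjamini-Hochberg adjustment. For WM164 against SKMel28 the differences of the log2 fold changes were 2.58 for EGFR (adjusted p = 9.32e-05), 1.52 for TGFA (adjusted p = 7.60e-04), 0.98 for HBEGF (adjusted p = 0.00484), 2.65 for NRG1 (adjusted p = 0.00558), -0.97 for NRG3 (adjusted p = 0.00506) and 6.44 for AREG (adjusted p = 0.00487). For WM164 against A375 edgeR gave 2.48 for EGFR (adjusted p = 1.26e-06), -2.31 for ERBB3 (adjusted p = 6.97e-10), -1.99 for NRG3 (adjusted p = 8.90e-06), 2.61 for NRG1 (adjusted p = 0.00645), 5.34 for AREG (adjusted p = 0.0223) and -7.03 for ERBB4 (adjusted p = 0.0342). For SKMel28 against A375 edgeR gave -2.29 for ERBB3 (adjusted p = 9.15e-10), -1.02 for NRG3 (adjusted p = 0.0110) and -9.01 for ERBB4 (adjusted p = 0.0407). The AREG and ERBB4 values rest on groups with 0 counts, so their size depends on the prior count and is no bound. The ERBB4 calls held in 3 of 15 alternatives for WM164 against A375 and in 4 of 15 for SKMel28 against A375. The AREG call for WM164 against A375 held in 12 of 18 and was lost without any 1 of the WM164 GFP libraries (edgeR adjusted p = 0.0560 to 0.0630) and without the third WM164 MAFG library (edgeR adjusted p = 0.0709), where its alternatives ran from 0.00832 to 0.878.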

How the results depend on the processing

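Of the results for single members that were called, 628 values under an alternative kept their direction and side of the threshold, 71 lost the call and 3 reversed. Of those not called, 402 kept both, 15 gained a call and 31 reversed. Counts of called members moved by over 1.5 times as follows. WM164 went from 6 to 3 on log2(TPM + 1) and to 2 on log2(TPM + 0.1), where 5 members could be tested, and SKMel28 from 3 to 0 with a fold above 2. GFP cells of WM164 against SKMel28 went from 6 to 3 with at least 10 counts in every library, where 6 could be tested. The response of WM164 against A375 went from 6 to 3 with that filter, to 2 on log2(TPM + 1) and to 3 on log2(TPM + 0.1), and that of SKMel28 against A375 from 3 to 1 on log2(TPM + 0.1). Beyond fewer members tested, the cause was not tested. Leaving out each library gave 4 to 5 called members in WM164, 3 to 4 in SKMel28 and 1 to 2 in A375, 8 to 9, 9 and 5 to 6 between GFP cells (A375 against SKMel28, A375 against WM164, WM164 against SKMel28), and 2 to 3, 4 to 7 and 6 for the responses (SKMel28 against A375, WM164 against A375, WM164 against SKMel28).

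Some signs changed. On the 2 TPM scales, GFP cells of WM164 against SKMel28 gave -0.25 and -0.25 for ERBB3, -0.47 and -0.55 for ERBB2 (limma adjusted p = 0.00927 and 0.0102) and -0.29 and -0.76 for EGFR, where the median of all genes was -0.42 and -0.54, and relative to it ERBB3 was 0.17 and 0.29, ERBB2 -0.05 and -0.01 and EGFR 0.13 and -0.22. The response difference of WM164 against SKMel28 for ERBB3 became 0.47 and 0.48 on those scales and 0.00436 with at least 10 counts, that of WM164 against A375 for AREG -0.0818 on log2(TPM + 1), and that of SKMel28 against A375 for ERBB2 0.0180 and 0.00421. EGFR in SKMel28 became 0.0351 in the model of 18 libraries. Leaving out each library gave ranges across 0 for HBEGF in WM164 (-0.000572 to 0.20), ERBB2 in WM164 (-0.0816 to 0.0686) and A375 (-0.20 to 0.00263), EGFR in SKMel28 (-0.33 to 0.30) and between GFP cells of WM164 and SKMel28 (-0.11 to 0.56), and for the responses ERBB3 of WM164 against SKMel28 (-0.0597 to 0.0474), ERBB2 of WM164 against A375 (-0.0112 to 0.23), and ERBB2 (-0.13 to 0.11), EGFR (-0.43 to 0.18) and NRG1 (-0.20 to 0.0517) of SKMel28 against A375.

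With the replicate block, 5, 3 and 1 members were called in WM164, SKMel28 and A375, and 6, 5 and 2 for the responses of WM164 against SKMel28, WM164 against A375 and SKMel28 against A375. The numbers do not pair the libraries. ERBB4 lost its 3 calls with the block (edgeR adjusted p = 0.0507, 0.0726 and 0.0830). Depth limits ERBB4, AREG and EREG in WM164 and SKMel28, EREG and ERBB4 in A375 and NRG1 in WM164 GFP cells, where calls rest on few counts.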
